A study of Homo sapiens with 4 samples.

Results

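Nuclear hormone receptors of myeloid differentiation were followed in OCI-AML3, an established human acute myeloid leukaemia cell line that carries the cytoplasmic NPM1 mutation (NPM1c+). The set held 10 genes of the 67062 rows of the deposited count table: 9 receptor genes (RARA, RARG, RXRA, RXRB, VDR, PPARG, NR1H2, NR1H3 and NR4A1) and THBD, a target gene of these receptors in myeloid cells. They were chosen by name, with earlier results of these data known, and all 10 had a row in the table. PIG-LONA cells were transduced with the retroviral pMSCV-PIG vector carrying the whole sequence of the long noncoding RNA LONA under an RNA polymerase II promoter. PIG-EMPTY cells received the vector without LONA. In both, a PGK promoter drove puromycin resistance and, through an internal ribosome entry site, GFP, and GFP-positive cells were sorted. Each virus was used in 2 independent transductions of the same cell line, which gave 2 polyadenylated RNA libraries per group and 4 in all. The study asked how LONA overexpression bears on myeloid differentiation of these cells.

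Nuclear receptors are transcription factors whose activity is set by small lipophilic ligands. Retinoic acid receptors (RARA, RARG), the vitamin D receptor (VDR), PPAR gamma (PPARG) and the liver X receptors (NR1H2, NR1H3) bind DNA as heterodimers with a retinoid X receptor (RXRA, RXRB), while NR4A1 is an orphan receptor and an early response gene that can bind DNA alone. All-trans retinoic acid drives granulocytic maturation and vitamin D drives monocytic maturation of myeloid leukaemia cells. PPAR gamma and the liver X receptors govern lipid handling in macrophages, and THBD encodes thrombomodulin, a thrombin receptor on endothelium and monocytes.

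The RefSeq promoter table (GRCh38.p14) held windows of 300 bases, 250 before and 50 after a start site, for 8 of the 10 genes, with 21 windows in all. VDR and THBD were not searched. The windows were searched on both strands for AGGTCA, the hexamer that most of these receptors bind, for AAAGGTCA, the element that NR4A1 binds as a monomer, which contains the hexamer, and for direct repeats of the hexamer with a spacer of 1, 3, 4 or 5 bases, each base of the spacer being any letter. AGGTCA was in 5 windows of 3 genes (PPARG, RARA and NR1H3) and in 13.8% of all 35116 windows of the table. A pair of PPARG windows, with starts at chr3:12288810 and chr3:12288820, overlap and hold the same match. AAAGGTCA was in 1 window, the most upstream window of PPARG, and in 1.22% of all windows. The direct repeats were in 0 windows of these genes, and in 0.0228%, 0.0057%, 0.0199% and 0.0057% of all windows in the same order, and a window without a match says nothing of binding elsewhere. Windows of PPARG and RXRB are shown because these receptor genes passed the test below, with AGGTCA and AAAGGTCA in capitals, 5′ to 3′ on the strand of the gene.
PPARG, most upstream start, chr3:12287118-12287417, plus strand: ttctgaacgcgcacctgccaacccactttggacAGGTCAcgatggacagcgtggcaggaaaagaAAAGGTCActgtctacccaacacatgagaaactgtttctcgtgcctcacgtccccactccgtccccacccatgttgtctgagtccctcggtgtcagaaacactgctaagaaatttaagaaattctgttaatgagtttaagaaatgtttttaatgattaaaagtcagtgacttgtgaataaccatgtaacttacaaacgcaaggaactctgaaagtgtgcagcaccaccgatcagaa
PPARG, next start, chr3:12288810-12289109, plus strand: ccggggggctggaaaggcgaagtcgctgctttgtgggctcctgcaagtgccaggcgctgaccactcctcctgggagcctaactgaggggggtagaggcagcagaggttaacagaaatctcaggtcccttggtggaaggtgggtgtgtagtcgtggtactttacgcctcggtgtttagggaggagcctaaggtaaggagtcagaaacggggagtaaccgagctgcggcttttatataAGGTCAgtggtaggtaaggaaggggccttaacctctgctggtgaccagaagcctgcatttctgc
RXRB, downstream start, chr6:33200616-33200915, minus strand: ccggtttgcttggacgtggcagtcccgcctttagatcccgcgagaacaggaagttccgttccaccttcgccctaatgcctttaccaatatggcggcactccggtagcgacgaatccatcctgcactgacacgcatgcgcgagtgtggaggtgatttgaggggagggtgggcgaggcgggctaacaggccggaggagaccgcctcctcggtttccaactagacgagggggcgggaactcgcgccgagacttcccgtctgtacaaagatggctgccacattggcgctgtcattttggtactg
In the most upstream PPARG window the hexamer stood 217 and 184 bases before the start site, and in the next it stood 14 bases before it. RXRB had no such match in either of its windows. In the most upstream windows of RARA and NR1H3 the hexamer stood 230 and 140 bases before the start site. Counts per gene do not tell which start site was used.

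Total counts were 30181550 and 38358442 in the PIG-LONA libraries, against 29819572 and 32350832 in the PIG-EMPTY libraries. Levels are given as CPM, counts per 1000000 of the library total after TMM scaling. Differences are log2 fold changes of PIG-LONA over PIG-EMPTY from the edgeR quasi-likelihood test with Benjamini-Hochberg adjustment over all 15918 genes that passed the filter on low counts, and a gene passed the test at an adjusted p under 0.05. The myeloid label fitted the counts: CD33 had 2946 to 3842 counts in a library, ELANE 15017 to 19429, HOXA9 1711 to 2024 and MEIS1 1231 to 1651, although MPO had 63 to 107 and CD68 at most 8. Of the 8 tested genes of this list of 9 myeloid blast markers, 2 fell in PIG-LONA cells, ANPEP (-0.57, edgeR adjusted p = 2.16e-06) and LYZ (-0.70, adjusted p = 0.00064), and 6 did not pass. The lymphoid genes CD3D, CD3E, CD2 and MS4A1 and the erythroid genes HBA1, HBA2 and HBB were at 0 in all 4 libraries. Of 14 tested monocyte and macrophage markers, 12 fell and 0 rose, where 3.51% of all genes tested were called lower. CD86 (-0.80, edgeR adjusted p = 0.0958) and MS4A7 (-0.10, edgeR adjusted p = 0.324) did not pass. The summed level of the 15 listed was 367 to 382 CPM in PIG-LONA libraries and 549 to 578 CPM in PIG-EMPTY libraries. The tissue macrophage marker MRC1 had at most 1 count in any library. Of 5 tested late neutrophil markers of 10 listed, 4 fell and 0 rose (CYBB, MMP8, MMP9 and CEACAM6). The summed level of the 10 was 521 to 550 CPM in PIG-LONA libraries and 679 to 694 CPM in PIG-EMPTY libraries. Most of it was CYBB, at 470.5 and 502.1 CPM in PIG-LONA and 593.1 and 607.6 CPM in PIG-EMPTY libraries. CEACAM6 had 6 to 47 counts in a library, and LTF, CAMP, LCN2 and FCGR3B, which were not tested, had at most 14. The median log2 fold change was -0.69 over the tested monocyte and macrophage markers and -0.85 over the tested late neutrophil markers. CEACAM8, a listed late neutrophil marker that was not tested, was at 0 in all libraries. Of 7 stromal and epithelial markers 2 were tested, and PECAM1, which myeloid cells also express, fell. The part of these marker shifts in the results below was not tested.

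THBD and PPARG were lower in PIG-LONA cells and RXRB was higher, while the other 7 genes did not pass the test. All 10 genes passed the filter on low counts. The test called 3 of them (30%), against 6.44% of all genes tested. Of the 3, 2 were lower, against 3.51% of all genes called lower, and 1 was higher, against 2.93% called higher. The groups did not overlap for 8 of the 10 genes, which was the case for 48.0% of all genes tested. The median log2 fold change of the 10 genes was -0.06, against 0.0011 over all genes tested. The genes were picked with results of these data known, so these shares describe the set and do not test it.

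**Figure D1:**
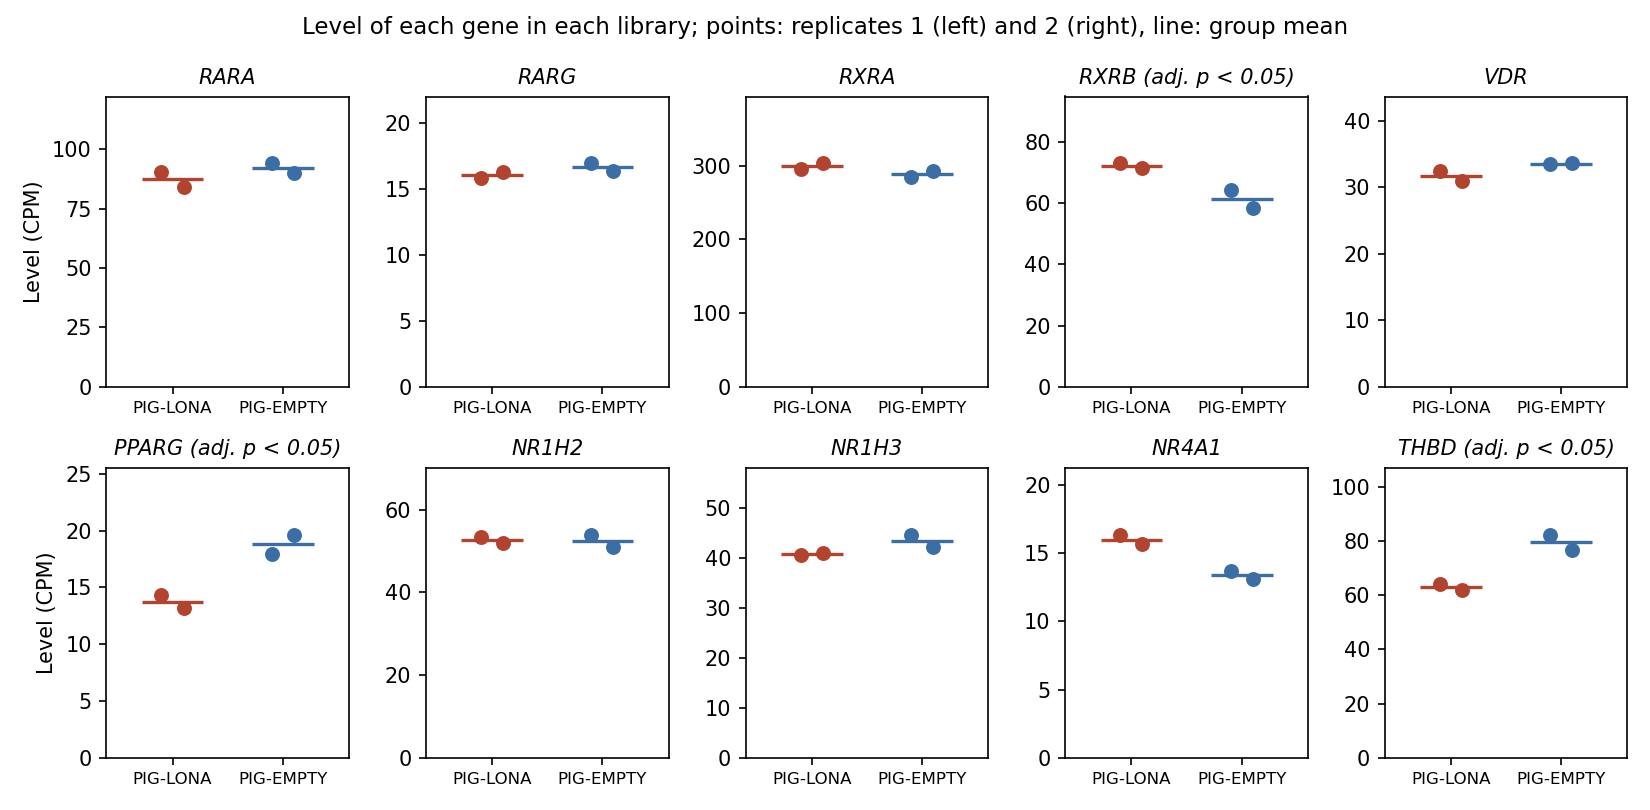
Level of each of the 10 genes in CPM (vertical axes from 0) in the 2 PIG-LONA libraries (red) and the 2 PIG-EMPTY libraries (blue); points are libraries and lines are group means. THBD and PPARG lie lower and RXRB higher in both PIG-LONA libraries than in both PIG-EMPTY libraries, and the remaining panels show smaller differences or, for NR4A1, 1 that missed the threshold.

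THBD (ENSG00000178726, a single exon on the minus strand of chromosome 20, 23045633 to 23049741, GRCh38) had the smallest p of the set. Its level was 64.0 and 61.8 CPM in the PIG-LONA libraries, against 82.3 and 76.7 CPM in the PIG-EMPTY libraries. Both PIG-LONA libraries lay below both PIG-EMPTY libraries, with a gap wider than the distance between the libraries of either group. THBD fell by 20.9%, a log2 fold change of -0.34 ± 0.05 (SE; 95% interval -0.44 to -0.24; n = 2 per group; edgeR adjusted p = 0.000138). In a bulk sample a lower level can mean fewer cells that express the gene or less RNA per cell, and these cannot be told apart. The 3 genes closest to THBD in their mean-centred log2 CPM over the 4 libraries, among 10533 genes with a mean of at least 5 CPM, were HCN2, RCBTB2 and ALOX5AP, at Euclidean distances of 0.04, 0.04 and 0.04.

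PPARG (ENSG00000132170, plus strand of chromosome 3, 12287368 to 12434356), the receptor for fatty acid ligands that is known from adipocytes and alveolar macrophages, had the largest difference of the set. It had 14.3 and 13.2 CPM in the PIG-LONA libraries, against 17.9 and 19.6 CPM in the PIG-EMPTY libraries, and the groups did not overlap. PPARG fell by 27.2% (log2 fold change -0.46 ± 0.08, 95% interval -0.63 to -0.29, edgeR adjusted p = 0.00101). The genes closest to it in pattern by the same measure were THEMIS2, FCGR1A and SPARC, at distances of 0.01, 0.04 and 0.05. FCGR1A is also among the monocyte markers above, while THEMIS2 and SPARC are not. With so few libraries, closeness by this measure is mostly a like log2 fold change (-0.46, -0.49 and -0.47 in the same order). Shared regulation was not tested. The calls of THBD and PPARG held in every other setting that was run. In a fit that leaves out a library, the spread comes from the pair of the other group. Calls gained or lost in such fits, here and below, therefore also depend on that pair.

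RXRB (ENSG00000204231, minus strand of chromosome 6, 33193588 to 33200688) encodes a heterodimer partner that the RAR, VDR, PPAR and LXR proteins share. It was at 73.1 and 71.7 CPM in the PIG-LONA libraries, against 64.3 and 58.4 CPM in the PIG-EMPTY libraries. The PIG-LONA libraries lay close together and above both PIG-EMPTY libraries, which differed more from each other. RXRB rose by 18.1% (log2 fold change 0.24 ± 0.05, 95% interval 0.14 to 0.34, edgeR adjusted p = 0.00470). The call was lost without PIG-EMPTY replicate 2, the lower of the 2 control libraries (0.17, adjusted p = 0.257), and without the filter on low counts (0.25, adjusted p = 0.0637).

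RXRB lies on the short arm of chromosome 6, whose genes were on balance higher in PIG-LONA cells. The median log2 fold change was 0.17 over 799 tested genes of chromosome 6 and -0.0036 over 15119 genes elsewhere, and 28.3% of the genes on chromosome 6 were called higher, against 1.59% elsewhere. RXRB had a larger log2 fold change than 70.3% of the genes on chromosome 6 and than 92.2% of the genes elsewhere. With the shift of chromosome 6 removed from each library, the log2 fold change of RXRB was 0.07 and it did not pass (edgeR adjusted p = 0.513). The exons of RXRB overlap those of SLC39A7, a zinc transporter gene on the opposite strand, over 6.22% of their length. SLC39A7 was at 137 and 132 CPM in PIG-LONA and 122 and 125 CPM in PIG-EMPTY libraries (log2 fold change 0.12 ± 0.04, edgeR adjusted p = 0.0785), and since the strand setting of the counting is not given, reads of the shared stretch cannot be assigned with certainty.

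**Figure D2:**
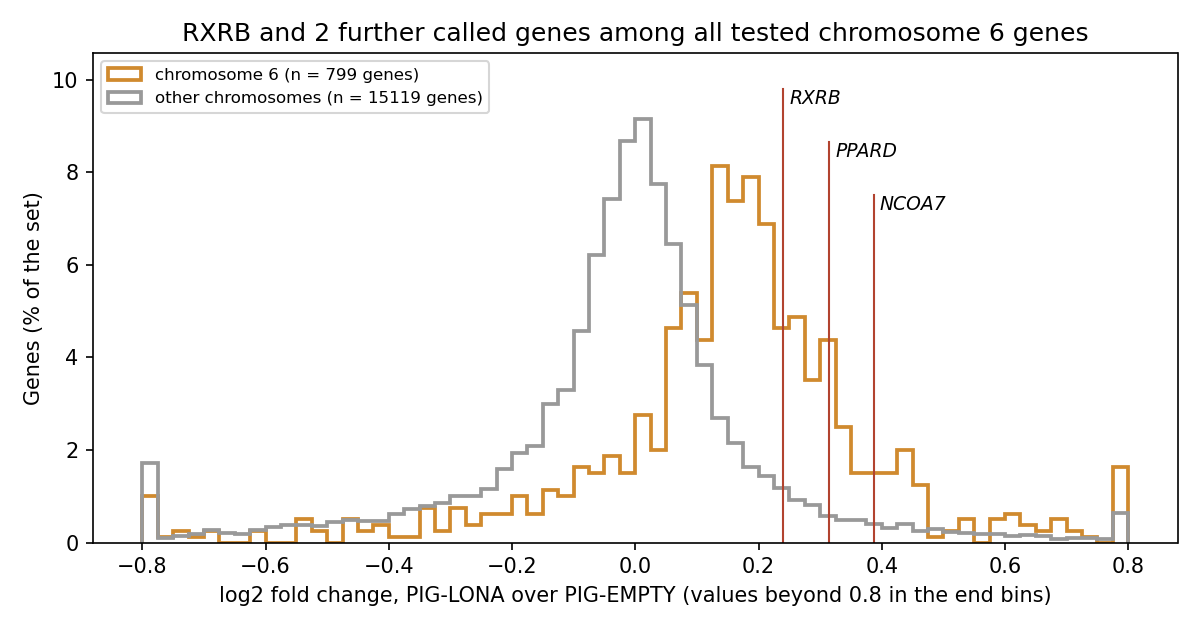
Distribution of log2 fold changes (horizontal axis, PIG-LONA over PIG-EMPTY) as a percentage of genes in each set (vertical axis) for the 799 tested genes of chromosome 6 (orange) and the 15119 others (grey). RXRB, at 0.24, lies within the range of the shifted chromosome 6 genes, whose median was 0.17, as do the receptor gene PPARD at 0.31 and the coactivator gene NCOA7 at 0.39.

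RXRA (ENSG00000186350, chromosome 9), the retinoid X receptor with the highest level of the set, did not pass. It had 296 and 303 CPM in the PIG-LONA libraries and 285 and 293 CPM in the PIG-EMPTY libraries, which did not overlap but lay close (log2 fold change 0.05 ± 0.04, 95% interval -0.02 to 0.13, edgeR adjusted p = 0.477). Per kilobase of exon, RXRB made up 41.1% and 40.1% of the summed RXRA and RXRB level in the PIG-LONA libraries and 38.9% and 36.0% in the PIG-EMPTY libraries. With 2 libraries per group, an exact two-sided permutation test of such a share cannot give a p below 0.333.

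The retinoic acid receptors showed small differences that did not pass. RARA (ENSG00000131759, chromosome 17), whose fusion with PML drives acute promyelocytic leukaemia, had 90.4 and 84.1 CPM in the PIG-LONA libraries and 94.0 and 89.8 CPM in the PIG-EMPTY libraries, and the groups overlapped (log2 fold change -0.08 ± 0.05, 95% interval -0.17 to 0.02, edgeR adjusted p = 0.414). Without PIG-LONA replicate 1 the log2 fold change of RARA was -0.13, in a fit whose spread comes from the PIG-EMPTY pair only. RARG (ENSG00000172819, chromosome 12), its paralog, had 15.8 and 16.3 CPM in the PIG-LONA libraries and 16.9 and 16.4 CPM in the PIG-EMPTY libraries (-0.05, 95% interval -0.21 to 0.11). RARG made up 13.9% and 15.2% of the summed RARA and RARG level per kilobase in PIG-LONA and 14.3% and 14.4% in PIG-EMPTY libraries, so these shares overlapped.

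VDR (ENSG00000111424, chromosome 12) had 32.5 and 31.0 CPM in the PIG-LONA libraries and 33.6 and 33.6 CPM in the PIG-EMPTY libraries. Both PIG-LONA libraries were slightly lower, and the difference did not pass (log2 fold change -0.08 ± 0.06, 95% interval -0.20 to 0.04, edgeR adjusted p = 0.478).

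The liver X receptors, which sense oxidised cholesterol, did not pass either. NR1H3 (ENSG00000025434, chromosome 11), the form known from macrophages and liver, had 40.7 and 41.1 CPM in the PIG-LONA libraries and 44.7 and 42.2 CPM in the PIG-EMPTY libraries, with no overlap (log2 fold change -0.09 ± 0.05, 95% interval -0.20 to 0.02, edgeR adjusted p = 0.420). Its exons overlap those of ACP2, on the opposite strand, over 4.17% of their length. NR1H2 (ENSG00000131408, chromosome 19), the broadly expressed form, had 53.4 and 51.9 CPM in the PIG-LONA libraries and 53.9 and 51.0 CPM in the PIG-EMPTY libraries. The PIG-LONA values lay between the PIG-EMPTY values, and the log2 fold change was 0.00 (95% interval -0.10 to 0.11).

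NR4A1 (ENSG00000123358, chromosome 12), also called NUR77, had 16.3 and 15.6 CPM in the PIG-LONA libraries, against 13.7 and 13.1 CPM in the PIG-EMPTY libraries. Both PIG-LONA libraries lay above both PIG-EMPTY libraries, and the log2 fold change, 0.25 ± 0.08, was as large as that of RXRB, but the gene did not pass after adjustment (95% interval 0.09 to 0.42, edgeR adjusted p = 0.0646). Without PIG-LONA replicate 2 its log2 fold change was 0.29, again with the spread of the PIG-EMPTY pair only. Its paralog NR4A2 was at 1.93 ± 0.15 CPM in PIG-LONA and 1.48 ± 0.30 CPM in PIG-EMPTY (SD, n = 2 each) and did not pass (edgeR adjusted p = 0.434), and NR4A3 had at most 8 counts in a library.

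**Figure D3:**
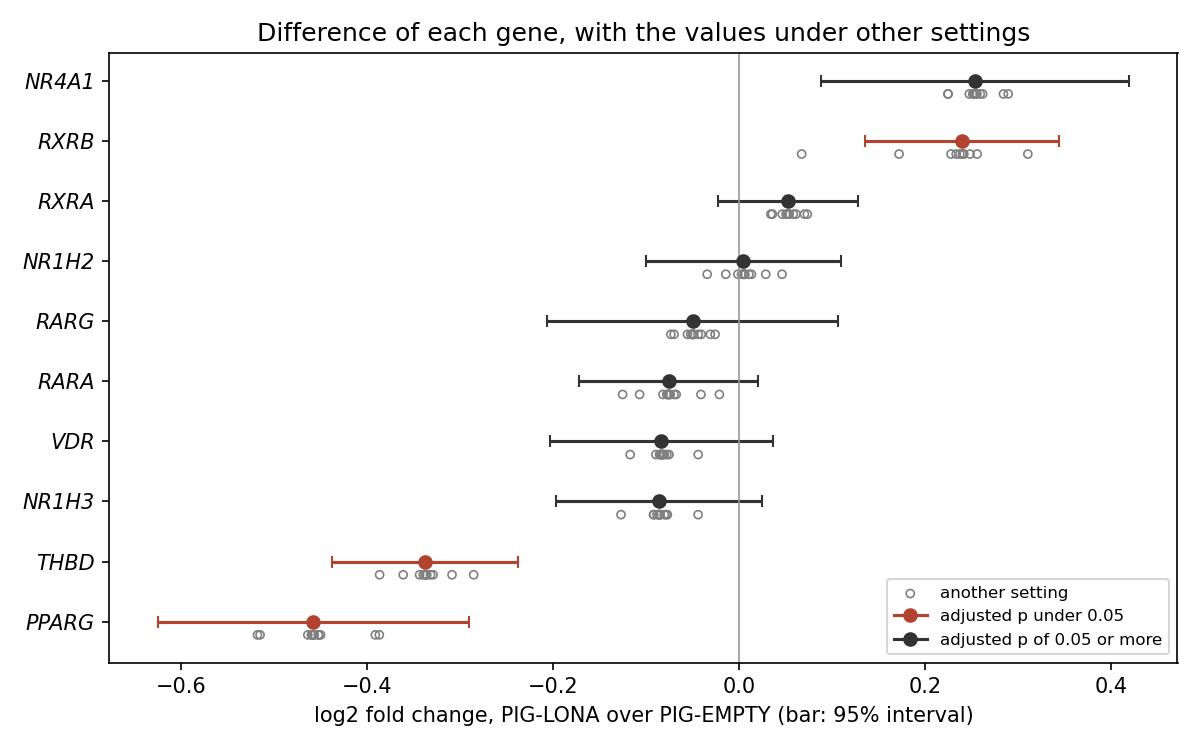
log2 fold change of PIG-LONA over PIG-EMPTY for each gene (filled points, with 95% intervals of the edgeR fit; red where the adjusted p was under 0.05), with the values under the other settings as open circles. The open circles of THBD and PPARG all lie below 0, and the lowest circle of RXRB, at 0.07, is the value with the chromosome 6 shift removed.

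Levels between genes were compared as CPM per kilobase of annotated exon, a scale that depends on which of the annotated exons the cells use. RXRA was highest, at 27.0 ± 0.47 in PIG-LONA and 26.1 ± 0.51 in PIG-EMPTY (SD, n = 2 each). In PIG-LONA libraries it was followed by RXRB (18.5), RARA (18.4), THBD (15.3), NR1H2 (14.0), NR1H3 (9.01), VDR (5.59), RARG (3.13), PPARG (3.03) and NR4A1 (2.19). Of these neighbours, RXRB overlapped RARA and RARG overlapped PPARG between libraries. In PIG-EMPTY libraries the order after RXRA was RARA (19.4), THBD (19.3), RXRB (15.6), NR1H2 (14.0), NR1H3 (9.58), VDR (5.92), PPARG (4.14), RARG (3.25) and NR4A1 (1.84), where RARA and THBD overlapped.

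**Figure D4:**
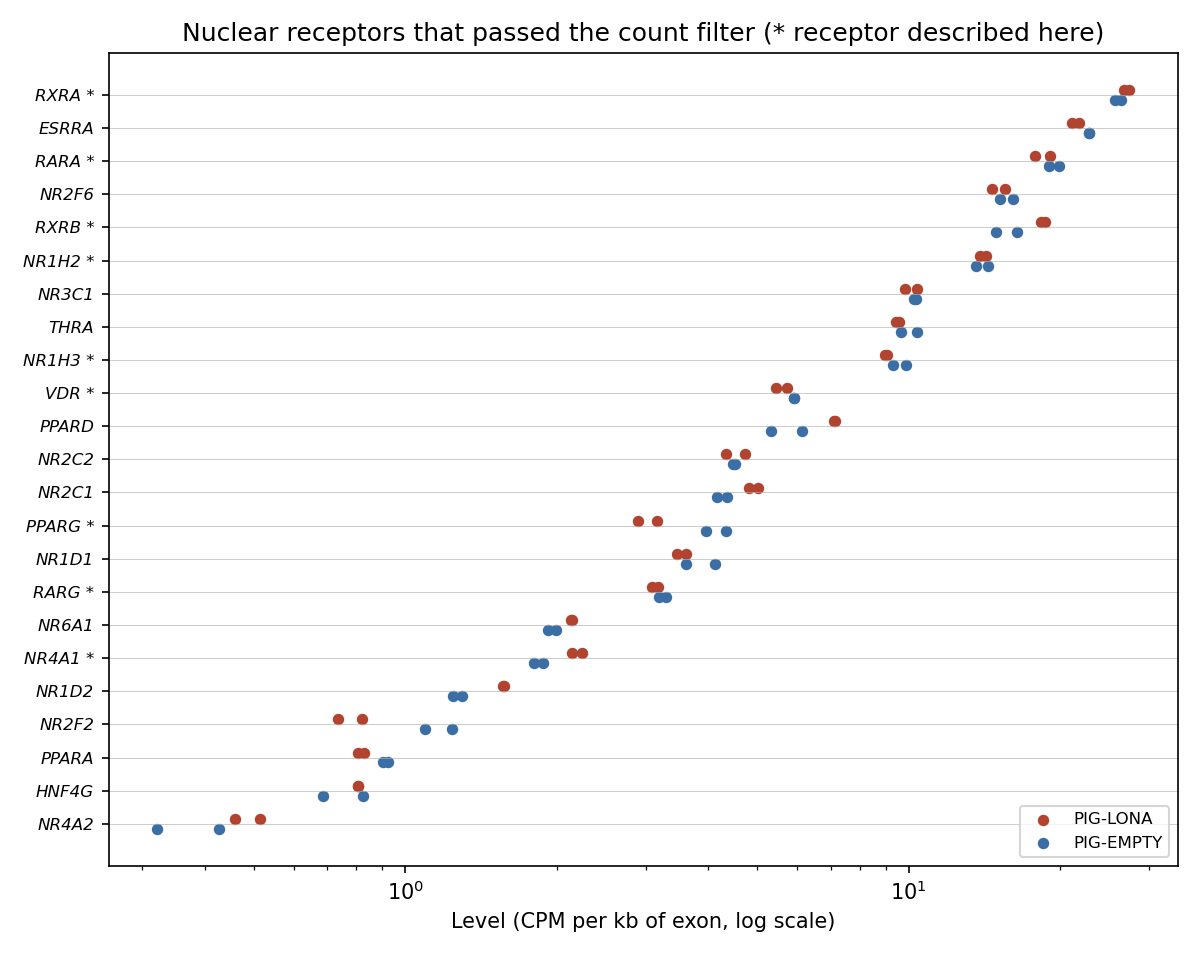
Level of the 23 nuclear receptor genes that passed the filter on low counts, as CPM per kilobase of exon on a log axis, in the PIG-LONA (red, upper) and PIG-EMPTY (blue, lower) libraries; stars mark the receptors described here. RXRA is at the top at 27.0 and 26.1, and PPARG at 3.03 in PIG-LONA and 4.14 in PIG-EMPTY changes its place relative to RARG.

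The rest of the receptor superfamily was mostly low in these cells. Of 39 other nuclear receptor genes, 14 passed the filter, and 9 had no count in any library. The estrogen-related receptor gene ESRRA was the highest of them, at 21.4 CPM per kilobase in PIG-LONA and 22.8 in PIG-EMPTY, second to RXRA. RARB and RXRG, the remaining RAR and RXR genes, had at most 2 counts in a library. Of the 14, 2 rose, 1 fell and 11 did not pass, with a median log2 fold change of -0.0048, and 21.4% were called, against 6.44% of all genes.

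PPARD, the PPAR paralog that lies on chromosome 6, rose to 31.7 and 31.8 CPM in the PIG-LONA libraries, against 27.4 and 23.7 CPM in the PIG-EMPTY libraries (log2 fold change 0.31 ± 0.07, edgeR adjusted p = 0.00529). Like RXRB, it lost its call without PIG-EMPTY replicate 2 (0.21, adjusted p = 0.242) and with the chromosome 6 shift removed (0.14, adjusted p = 0.248). The orphan receptor gene NR2C1 had 0.21 ± 0.06 (adjusted p = 0.0427), and its call was lost in 9 of 14 other settings. NR2F2, which encodes COUP-TFII, fell to 4.75 and 5.30 CPM in the PIG-LONA libraries, against 7.99 and 7.08 CPM in the PIG-EMPTY libraries (-0.57 ± 0.12, edgeR adjusted p = 0.00591), and did not pass without PIG-EMPTY replicate 1. The count of called genes in this list was 1 without either PIG-EMPTY library. The third PPAR gene, PPARA, was at 10.8 ± 0.23 CPM in PIG-LONA and 12.1 ± 0.17 CPM in PIG-EMPTY and did not pass (adjusted p = 0.348).

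Coregulators, the corepressors and coactivators that receptors recruit, passed the filter in 23 of 24 cases, of which 1 rose and 1 fell. NCOA7, a coactivator gene on chromosome 6, rose (0.39 ± 0.08, edgeR adjusted p = 0.00411; 0.21 and adjusted p = 0.148 with the chromosome 6 shift removed). NRIP1, which encodes the ligand-dependent corepressor RIP140, fell to 26.4 and 29.5 CPM in the PIG-LONA libraries, against 33.8 and 34.2 CPM in the PIG-EMPTY libraries (-0.28 ± 0.06, edgeR adjusted p = 0.00764). Its call was lost in 3 of 14 settings: the DESeq2 Wald test, no filter on low counts and without PIG-EMPTY replicate 2. The other 21 did not pass, among them the corepressor gene NCOR1 (0.09) and the histone deacetylase gene HDAC3 (-0.02). The median was -0.01, and 8.7% of the coregulators were called, close to the 6.44% of all genes. Without PIG-LONA replicate 1, 6 coregulators were called, and without PIG-EMPTY replicate 2 the count was 1.

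Of 14 tested genes of retinoid metabolism and retinoid response, 3 fell, 0 rose and 11 did not pass, with a median of -0.32. ALDH1A1, an enzyme that makes retinoic acid, fell to 11.2 and 10.2 CPM in the PIG-LONA libraries, against 16.5 and 16.1 CPM in the PIG-EMPTY libraries (-0.62 ± 0.08, edgeR adjusted p = 9.6e-05), and held its call in every other setting that was run. PRAM1, a gene that retinoic acid induces in promyelocytic leukaemia cells, had -0.33 ± 0.09 (adjusted p = 0.0398) and lost its call in 7 of 14 settings, including 3 of the 4 in which a library was left out. ASB2, a retinoic acid target and ubiquitin ligase subunit, had -0.73 ± 0.17 and lost its call in 4 of 14 settings. These included the DESeq2 Wald test, the fit without the filter on low counts and the fit without PIG-EMPTY replicate 2. The retinoic acid hydroxylase genes CYP26A1, CYP26B1 and CYP26C1, direct RAR targets, had at most 1 count in any library, so a difference in them was not detectable at this depth.

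Of 13 tested genes of vitamin D metabolism and response, 4 fell, 0 rose and 9 did not pass, with a median of -0.14. CDKN1A, which encodes the cell cycle inhibitor p21, fell to 30.1 and 30.0 CPM in the PIG-LONA libraries, against 41.9 and 41.3 CPM in the PIG-EMPTY libraries (-0.47 ± 0.05, edgeR adjusted p = 1.67e-05). It did so although it lies on chromosome 6. CD14, the lipopolysaccharide co-receptor, which also stands in the monocyte list, had -0.53 ± 0.11, SHE, an SH2 domain adaptor gene, -0.62 ± 0.14 and HBEGF, a growth factor gene, -0.29 ± 0.09. CD14 and HBEGF lost their calls without PIG-EMPTY replicate 2, which left 2 of the list. HBEGF (adjusted p = 0.0478) lost its call in 10 of 14 settings, and CD14 and SHE in 2 each. CYP24A1, the vitamin D hydroxylase and most sensitive VDR target, had at most 6 counts in a library.

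Of 13 tested liver X receptor targets, 4 fell, 0 rose and 9 did not pass, with a median of -0.13. The cholesterol exporter gene ABCA1 fell to 5.88 and 6.61 CPM in the PIG-LONA libraries, against 8.90 and 12.4 CPM in the PIG-EMPTY libraries (-0.77 ± 0.13, edgeR adjusted p = 0.000893). Without PIG-EMPTY replicate 2 the ABCA1 difference was -0.50 (adjusted p = 0.0267), and with no filter on low counts it did not pass (adjusted p = 0.0575). The phospholipid transfer protein gene PLTP (-0.18 ± 0.05), the receptor kinase gene MERTK (-0.50 ± 0.13) and the lipoprotein lipase gene LPL (-1.25 ± 0.32) fell too, LPL from few counts, with 15 and 19 in PIG-LONA and 42 and 32 in PIG-EMPTY libraries. The abundant lipogenic targets did not pass, with SREBF1 at -0.04, SCD at 0.09 and FASN at 0.02. PLTP lost its call in 6 of 14 settings, MERTK in 4 of 14 and LPL in 4 of 12. Among these, PLTP and LPL lost theirs without PIG-EMPTY replicate 1, and PLTP and MERTK without PIG-EMPTY replicate 2.

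Of 12 tested PPAR gamma targets, 3 fell, 1 rose and 8 did not pass, with a median of -0.09. The scavenger receptor and fatty acid transporter gene CD36 fell to 140 and 141 CPM in the PIG-LONA libraries, against 172 and 173 CPM in the PIG-EMPTY libraries (-0.29 ± 0.04, edgeR adjusted p = 5.93e-05). CPT1A, the gate of mitochondrial fatty acid oxidation, rose to 21.1 and 23.8 CPM in the PIG-LONA libraries, against 17.4 and 16.9 CPM in the PIG-EMPTY libraries (0.39 ± 0.08, edgeR adjusted p = 0.00225). Both held their calls in every other setting that was run. PLIN2, a lipid droplet coat gene, had -0.21 ± 0.06 and lost its call in 9 of 14 settings, among them the fit without PIG-LONA replicate 2 (-0.11), and LPL stands in this list as well. FABP4 and ANGPTL4, induced by PPAR agonists in other cells, had at most 3 counts in a library. Percentages called in the retinoid, vitamin D, liver X receptor and PPAR gamma lists were 21.4%, 30.8%, 30.8% and 33.3%, against 6.44% of all genes. Whether these calls are tied to the fall of monocyte and late neutrophil markers given above was not tested.

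**Figure D5:**
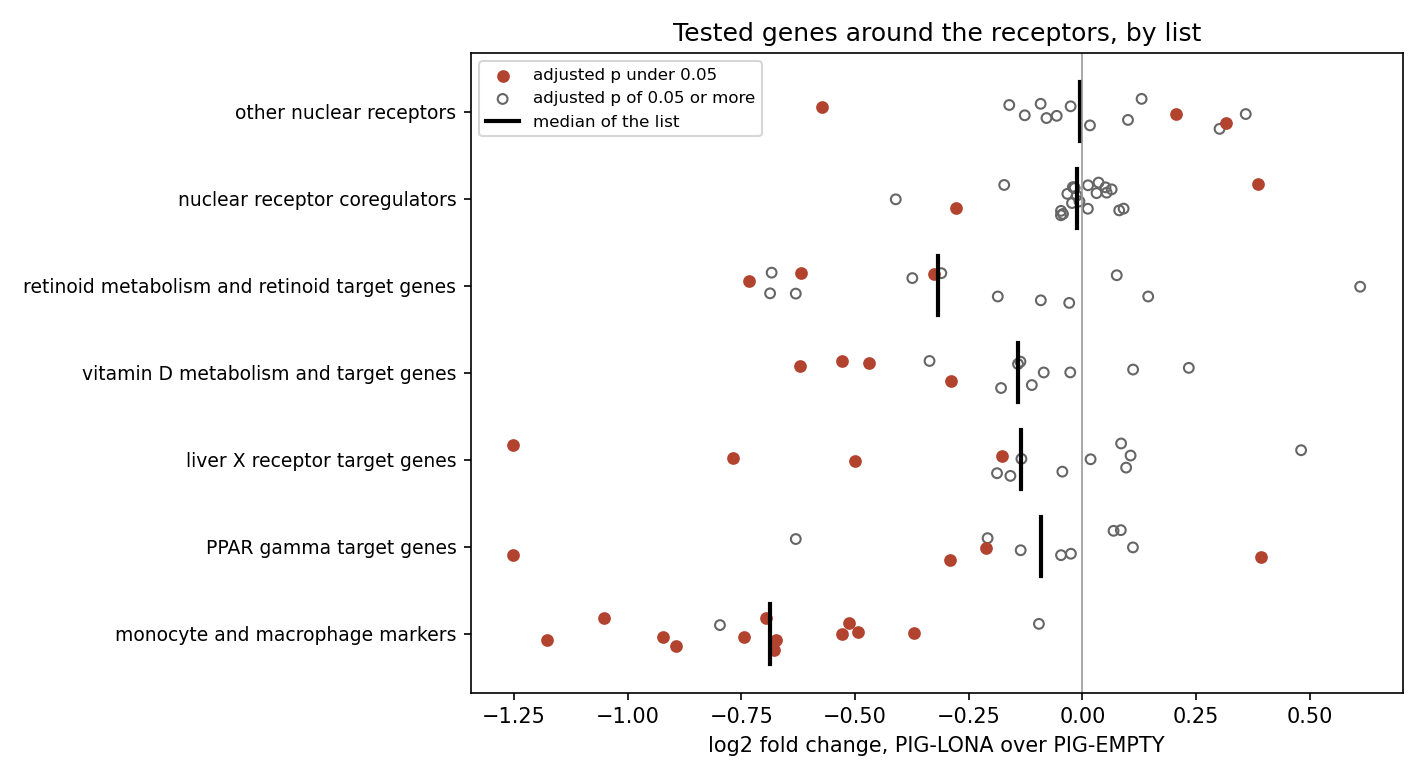
log2 fold changes (horizontal axis, PIG-LONA over PIG-EMPTY) of the tested genes of the 6 lists around the receptors and of the monocyte and macrophage markers; red points had an adjusted p under 0.05 and black bars are list medians. The medians of the receptor and coregulator lists lie at -0.0048 and -0.01, those of the 4 target lists between -0.32 and -0.09, and that of the monocyte markers at -0.69.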

How the data were processed

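Directional (NEBNext Ultra II) libraries of polyadenylated RNA from 4 transduced cultures were sequenced, per the labels' protocols. Values are raw counts of reads per Ensembl gene, as deposited by the authors. The genome build hg38 and the tools STAR 2.5, HTSeq and FastQC 0.11.4 are listed in the submitters' processing notes. For the strand setting and the annotation release: not given in the sources used here. Of 67062 rows, 59091 had a symbol of their own in the table of gene names, and rows without such a symbol held 0.086% of the counts. Coordinates and exon lengths came from GENCODE release 29 on GRCh38, the assembly of hg38.

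The members and gene lists were chosen with earlier results of these data known. Genes were filtered with filterByExpr (minimum count 10, minimum total 15), scaled by TMM and tested with glmQLFit (legacy form off) and glmQLFTest of edgeR 4.0.16 in R 4.3.3 with the group as the only term, two-sided. The standard error is the log2 fold change divided by the square root of F. The label states separate transductions of 1 line, so p-values measure the spread between these. The fit left 2 residual degrees of freedom per gene, and the test drew on the spread of all genes as well. The biological coefficient of variation was 2.95%. The chi-square per gene was 4.32 between PIG-LONA libraries and 1.77 between PIG-EMPTY libraries, above the 1 of counting noise, so all 4 were kept. A fit without a PIG-LONA library takes its spread from the PIG-EMPTY pair, and the reverse. Counts of calls in such fits cannot be ascribed to the left-out library alone.

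All members were named. Each list added its called genes, up to 4, with the smallest p. For THBD and PPARG, the 3 genes nearest in pattern were named, by Euclidean distance among genes with a mean of at least 5 CPM. ESRRA, PPARA, NR4A2 and NR4A3, RARB, RXRG, NCOR1, HDAC3, SREBF1, SCD, FASN and the targets with few counts were named after their values were seen, as was SLC39A7. Counts were simulated for this comparison from the fitted dispersions, equal in both groups and independent between genes (200 genes changed, 15650 tested). On these the test found 38.8% of genes set to a 1.2-fold difference, 73.5% at 1.5-fold, 82% at 2-fold and 97.9% at 4-fold. Of its calls there, 2.07% were false. The simulation held no chromosome 6 shift and no difference in spread between groups, so 2.07% is not the error rate of the calls in these data. Alternatives were DESeq2 1.42.0 size factors, library totals, the DESeq2 Wald test, limma-voom (limma 3.58.1), no low-count filter, a CPM filter, a replicate block, each library left out, chromosome 6 left out or its shift removed, and adjusted p under 0.01.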

Additional observations from a re-analysis of the deposited data

How the results depend on the processing

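Up to 14 other settings were run for each of the 29 named genes, 400 values in all, of which 325 kept direction and side of the threshold, 70 lost and 2 gained a call and 3 changed sign. The 3 were NR1H2, which never passed, at -0.0014 with library totals and between -0.0344 and 0.0461 over the 4 fits that left out a library, against 0.0046 with all libraries. The number of called members was 3, and 2 to 4 with a library left out. It was 2 without the low-count filter, 2 with the chromosome 6 shift removed and 2 with chromosome 6 genes left out, which removes RXRB by construction. The other causes were not tested.

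Of all genes, 1025 were called, against 473 by the DESeq2 Wald test, 334 without the low-count filter, 660 without chromosome 6 genes, 528 at adjusted p under 0.01, and 466 to 2331 with a library left out. By the DESeq2 Wald test 1 coregulator, 1 retinoid, 2 vitamin D, 1 liver X receptor and 2 PPAR gamma genes were called. Without the low-count filter the calls were 0 other nuclear receptors, 1 coregulator, 1 retinoid, 1 vitamin D, 0 liver X receptor and 2 PPAR gamma genes. At adjusted p under 0.01 they were 1 retinoid, 1 liver X receptor and 2 PPAR gamma genes. Without chromosome 6 genes 1 coregulator and 2 vitamin D genes were called, and with the chromosome 6 shift removed 1 other nuclear receptor and 1 coregulator. With a library left out the counts ran from 1 to 3 for other nuclear receptors, 1 to 6 for coregulators, 1 to 4 for retinoid, 2 to 5 for vitamin D, 2 to 6 for liver X receptor and 3 to 6 for PPAR gamma genes.

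The labels number the replicates but do not pair them, and deviations of same-numbered libraries correlated at 0.0288 across genes and at 0.0843 across genes with a mean of at least 5 CPM. With the replicate number as a block, 1101 genes and 3 members were called and no call of a member changed. In simulated data of this depth 38.8% of genes with a 1.2-fold difference were found. That share was not split by level, so it does not tell what a missed call of a given member shows. The interval of the edgeR fit for NR4A1 ran from 0.09 to 0.42, so its missed call shows little. The intervals of RXRA (-0.02 to 0.13), NR1H2 (-0.10 to 0.11) and RARA (-0.17 to 0.02) excluded the 0.25 of NR4A1 in either direction. So did those of RARG (-0.21 to 0.11), VDR (-0.20 to 0.04) and NR1H3 (-0.20 to 0.02). Smaller differences in these genes were not excluded. Of 19 called list genes, 14 lost their call without the low-count filter, and NCOA7, ALDH1A1, CDKN1A, CD36 and CPT1A kept it.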
